A study of Mus musculus with 12 samples.

Results

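The transcripts of 8 amino acid transporter genes (Slc3a2, Slc7a5, Slc7a6, Slc7a1, Slc1a4, Slc1a5, Slc38a1, and Slc38a2) were followed in donor T cells recovered from the liver of mice after allogeneic transplantation, a model of graft-versus-host disease. They were taken by name from a table of 25078 genes, and all 8 were measured in every library. The question of the study that they bear on is how STAT3 and PD-1 shape the metabolism of alloreactive T cells, including the supply of amino acids for glutathione. The recipients were BALB/c mice given a lethal dose of radiation. Their graft held CD90.2+ T cells of 1 of 3 C57BL/6 donor genotypes and marrow of WT C57BL/6 mice from which T cells had been removed. The T cell donors were WT, STAT3-/- (Stat3 fl/fl with CD4-Cre, named STAT3ko in the labels), or STAT3-/-PD-1-/- (the same deletion together with germline loss of PD-1, named STAT3ko PD-1ko). CD4-Cre is active at the thymic stage that precedes both lineages, so CD8+ T cells carry the deletion too, while the bone marrow and the recipients were WT in all groups. On day 6 after transplantation, H-2Kb+TCRβ+ donor cells were sorted as CD4+ or CD8+, which gave 12 libraries, 2 for each genotype in each subset. Each library combines cells of 3 recipients, and replicates are therefore pools, not single mice. No group had PD-1 loss with intact STAT3, so a difference between STAT3-/-PD-1-/- and STAT3-/- cells concerns PD-1 only on the STAT3-deficient background.

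A T cell that divides must import amino acids, since resting cells take up little and activated cells build protein, nucleotides, and glutathione from them. Slc3a2 encodes the heavy chain of CD98, which carries light chains to the cell surface, and the light chains do the transport. Slc7a5 (LAT1) brings in large neutral amino acids such as leucine, and Slc7a6 (y+LAT2) exchanges cationic for neutral amino acids. Slc7a1 (CAT-1) takes up arginine and lysine without a heavy chain. Slc1a4 (ASCT1) and Slc1a5 (ASCT2) exchange small neutral amino acids, and ASCT2 is a main route for glutamine. Slc38a1 (SNAT1) and Slc38a2 (SNAT2) accumulate glutamine, alanine, and related amino acids with sodium, and Slc38a2 is known as a gene that is induced when amino acids run short. Many of these genes are known targets of ATF4 (the factor of the amino acid and stress response) or of MYC.

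Promoter sequences were available from RefSeq for 5 of the 8 genes (7 start sites, build GRCm38.p6), and none was given for Slc7a5, Slc1a5, and Slc38a1. Shown are the 100 bases before and the first 20 bases after the start of 2 genes that were higher in STAT3-/-PD-1-/- cells (Slc1a4 and the outermost start of Slc7a1) and of 2 genes that separated the replicates (Slc38a2 and an inner start of Slc3a2). Capitals mark matches to the motifs named after them.
Slc1a4, chr11:20332694-20332813, minus strand: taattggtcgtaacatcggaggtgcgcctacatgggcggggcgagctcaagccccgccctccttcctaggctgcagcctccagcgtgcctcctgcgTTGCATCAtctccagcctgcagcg
Slc7a1, chr5:148399885-148400004, minus strand: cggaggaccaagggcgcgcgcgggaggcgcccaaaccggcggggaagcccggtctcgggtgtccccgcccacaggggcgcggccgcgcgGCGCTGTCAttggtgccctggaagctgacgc
Slc3a2, chr19:8713878-8713997, minus strand: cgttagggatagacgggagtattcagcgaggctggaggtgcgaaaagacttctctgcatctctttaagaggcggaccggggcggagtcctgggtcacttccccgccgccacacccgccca
Slc38a2, chr15:96699709-96699828, minus strand: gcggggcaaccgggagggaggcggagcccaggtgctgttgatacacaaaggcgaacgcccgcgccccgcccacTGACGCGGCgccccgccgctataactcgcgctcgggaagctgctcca
The search covered both strands of windows of 300 bases, from 250 before to 50 after each start, and the 4 motifs do not overlap each other in these genes. The letters TGATGNAA, which C/EBP-ATF dimers are known to bind, were present in 3.97% of the 32851 windows of all genes and in 1 of the 7 windows here. This was Slc1a4, on the opposite strand, with the match beginning 4 bases before the start. The core of the antioxidant response element, TGACNNNGC, was present in 12.4% of all windows and in 4 of the 7. These were Slc38a2, with the match beginning 27 bases before the start, the outermost start of Slc7a1 (11 bases before, on the opposite strand), and a single site shared by the 2 overlapping windows of Slc7a6. The STAT element TTCNNNGAA, in 8.3% of all windows, was found only at the inner start of Slc7a1, 146 bases upstream, and the E-box CACGTG, in 7.15% of all windows, in none of the 7. These are matches of letters and were not tested as binding sites.

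The libraries held 21676125 to 24551477 counts on genes (median 23442480), so that depth differed little between groups. The genotype labels were checked first. Stat3 stood at 362 and 466 CPM (reads of a gene relative to the library's total, scaled by the TMM method) in WT CD4+ libraries, at 138 and 164 in STAT3-/-, and at 157 and 222 in STAT3-/-PD-1-/-. In CD8+ libraries it stood at 396 and 387, 148 and 136, and 154 and 238. Pdcd1, which encodes PD-1, stood at 242 and 235 CPM in WT CD4+, 257 and 323 in STAT3-/- CD4+, and 55.1 and 26.3 in STAT3-/-PD-1-/- CD4+ libraries. The CD8+ libraries had 375 and 310, 422 and 458, and 94.0 and 66.5. Both genes thus sat on the side that the labels give in every library, although with 2 pools a group the fall of Stat3 in STAT3-/- cells against WT (log2 fold change −1.46 in both subsets) had adjusted p-values of 0.0550 (CD4+) and 0.108 (CD8+). Of the genes sorted on, Cd4 had 30578 to 44419 counts in CD4+ and 8 to 67 counts in CD8+ libraries. Cd8a had 13462 to 33522 counts in CD8+ libraries, 9 to 44 in WT and STAT3-/- CD4+ libraries, and 26 and 142 in STAT3-/-PD-1-/- CD4+ libraries. Cd8b1 had 212 to 290 counts in WT and STAT3-/- CD4+ libraries and 325 and 488 in STAT3-/-PD-1-/- CD4+ libraries, against 12528 to 28945 in CD8+ libraries. The 10 hepatocyte markers summed to 1.44 to 5.30 CPM, with Trf the most abundant in every library. The 5 B cell markers summed to 1.65 to 2.41 CPM in CD4+ libraries. In CD8+ libraries they summed to 14.7 and 10.8 CPM in WT, 12.6 and 13.9 in STAT3-/-, and 6.12 and 5.38 in STAT3-/-PD-1-/- cells. Nearly all of this was Cd79b, while Ms4a1 had 0 counts in all 12 libraries.

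Markers of T cells themselves moved with the genotype. Their sum over 10 genes was 7657 and 7365 CPM in WT CD4+ and 6221 and 6060 in STAT3-/-PD-1-/- CD4+ libraries. For CD8+ T cells it was 8038 and 8272 CPM in WT and 5510.5 and 5643 in STAT3-/-PD-1-/- libraries, where Cd8a stood at 597 and 598 CPM against 1188 and 1349 in WT. The STAT3-/-PD-1-/- libraries thus had the lowest sums in both subsets. The 3 NK cell markers summed to 79.1 and 86.6 CPM in WT CD8+, 61.6 and 82.6 in STAT3-/- CD8+, and 46.8 and 30.4 in STAT3-/-PD-1-/- CD8+ libraries, with Klrb1c or Eomes the most abundant and Ncr1 at 0 to 9 counts in the 12 libraries. In CD4+ libraries the sums were 14.8 and 14.2, 21 and 20.2, and 26.4 and 19.1 CPM, with Eomes at 3.40 and 2.87 CPM in WT and 7.78 and 8.76 in STAT3-/-PD-1-/- cells. The part of these markers in the differences of the transporters was not tested.

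One feature of the libraries has to be stated before the genotypes are compared. Replicate 1 and replicate 2 stood apart in both subsets of every genotype. For STAT3-/-PD-1-/- libraries, the chi-square between replicates, per degree of freedom, was 41.9 (CD4+) and 29.6 (CD8+). The other groups had 46.6 to 84.6. Slc3a2 and Slc38a2 were among the genes that separated the replicates of WT and STAT3-/- cells. With the replicate number as a term beside the 6 groups, 14.1% of the 12334 genes tested differed between replicate 2 and replicate 1 (edgeR's quasi-likelihood test, Benjamini-Hochberg adjusted p under 0.05, which is meant by a call throughout), and 7.02% were lower. Of the 8 transporters, Slc3a2 (adjusted p = 0.0107) and Slc38a2 (adjusted p = 0.00347) were lower in replicate 2 and none was higher. Without WT CD4+ replicate 1 or 2, only Slc38a2 was called. This fit counts the CD4+ and CD8+ libraries of a pool separately, and its p-values are too small where they share a pool. With the counts of both subsets summed, so that each of 6 pools was counted once, the log2 differences were −0.86 for Slc3a2 (SE 0.23, adjusted p = 0.125) and −0.61 for Slc38a2 (SE 0.12, adjusted p = 0.0763). None of the 8 was then called, of 12753 genes tested 0.721% were called, and 2 transporters were under an unadjusted p of 0.05, as were 20.2% of all genes. The values and the split by genotype follow the comparison of genotypes. In the titles of the libraries, replicate 1 and replicate 2 carry separate runs of serial numbers, and for receptor sequencing the study's methods speak of 2 batches with 3 mice combined in each. The replicate number may therefore stand for a batch as well as a pool, and these cannot be told apart.

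Per transcript length, the genes spanned a wide range. The authors' RPKM values, averaged over the 12 libraries, were 100.3 for Slc1a5 (chr7:16781346-16798274, plus strand, mm10), 73.1 for Slc38a2 (chr15:96687392-96699728, minus), and 66.3 for Slc3a2 (chr19:8706882-8723369, minus). Slc38a1 (chr15:96571418-96642913, minus) averaged 40.7 and Slc7a5 (chr8:121881146-121907686, minus) 40.0 RPKM. Slc7a1 (chr5:148327410-148399904, minus) ranged from 12.9 to 33.3 RPKM over the libraries. Slc7a6 (chr8:106168854-106198714, plus) averaged 15.9 and Slc1a4 (chr11:20302180-20332713, minus) 0.546 RPKM. None of the 8 overlaps another gene of the table. The ranges over libraries overlapped between each pair of neighbours in this order except the last. Slc1a4, at 0.163 to 1.25 RPKM, lay below Slc7a6, at 13.2 to 18.8 RPKM, in every library, and only 14 to 116 reads per library stand behind it. The 2 glutamine routes of highest level differed in steadiness, with Slc1a5 at 80.7 to 112 RPKM and Slc38a2 at 52.6 to 107 RPKM.

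**Figure D1:**
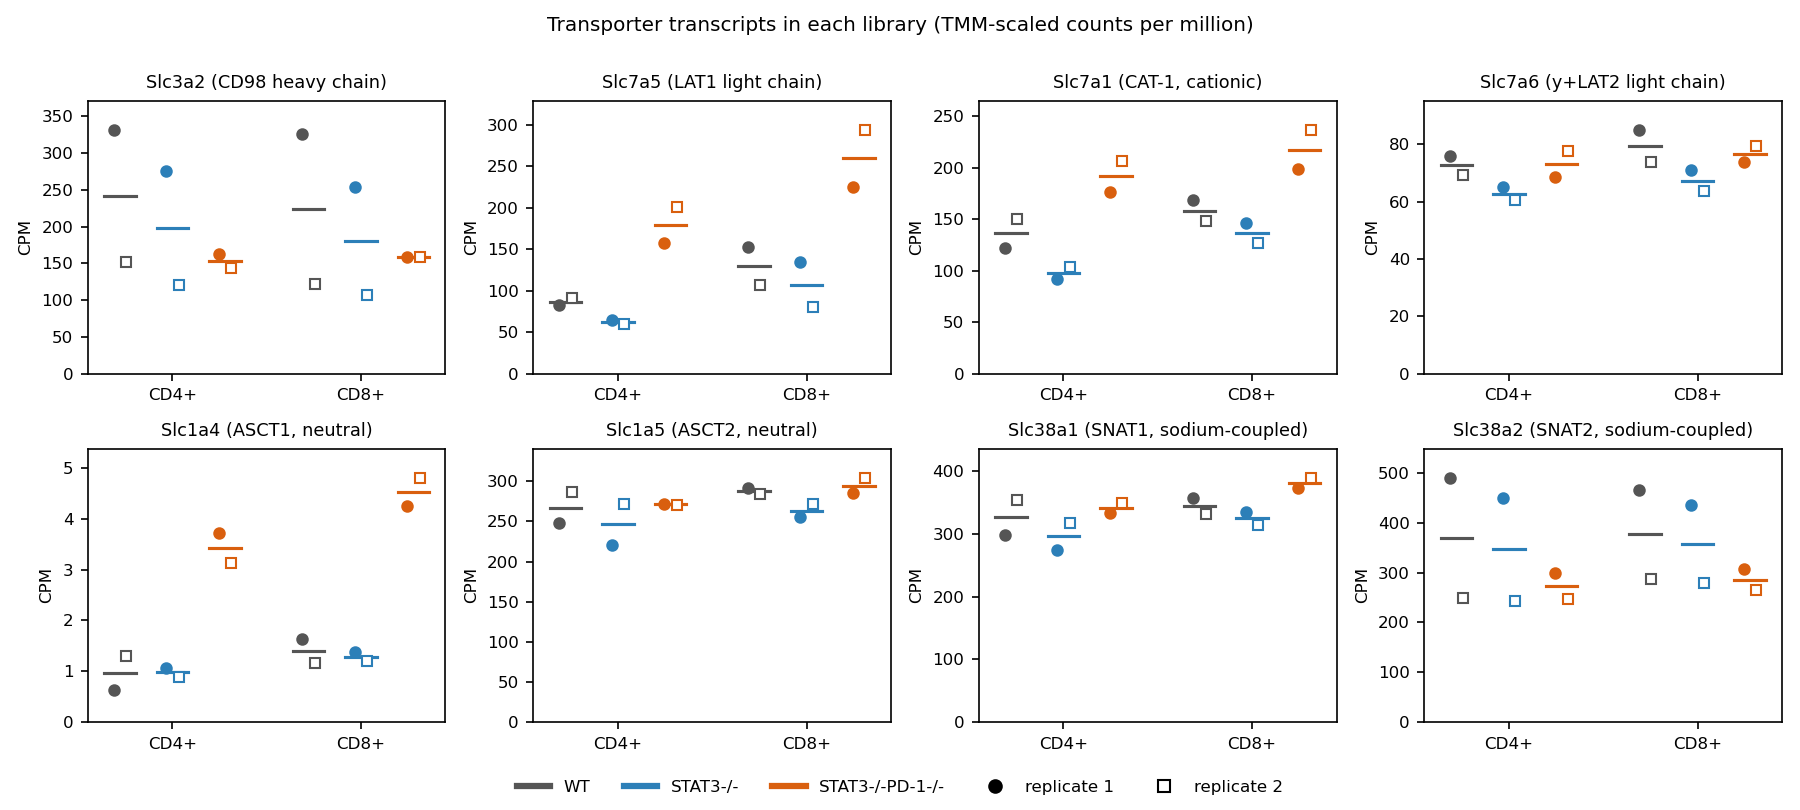
Level of each transporter (TMM-scaled CPM, linear axis from 0) in the 12 libraries, by subset and donor genotype, with filled circles for replicate 1, open squares for replicate 2, and bars for group means. Slc7a5 and Slc1a4 are highest in the STAT3-/-PD-1-/- libraries of both subsets, while Slc3a2 and Slc38a2 are split by replicate in WT and STAT3-/- cells.

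With loss of STAT3 alone, no transporter differed from WT by more than the test across genes requires. Slc7a5 stood at 82.6 and 91.6 CPM in WT CD4+ libraries and at 65.3 and 60.1 in STAT3-/- CD4+ libraries. Slc7a1 stood at 123 and 151 CPM in WT and at 92.3 and 104 in STAT3-/- CD4+ libraries. Both genes were lower in each STAT3-/- library than in each WT library, with log2 fold changes of −0.47 (95% interval −0.86 to −0.08) and −0.48 (−0.87 to −0.08), but neither passed the test (adjusted p = 0.361 for both, edgeR's quasi-likelihood test). In CD8+ T cells, Slc7a5 overlapped between the genotypes, at 152 and 107 CPM in WT and 134 and 80.7 in STAT3-/- libraries. Of the 8 genes, 0 were called in CD4+ T cells, where 0.334% of 11959 genes tested were called, and 0 in CD8+ T cells, where 0.0583% of 12002 were called. At an unadjusted p under 0.05, 2 of the 8 passed in CD4+ (Slc7a5 and Slc7a1) and 0 in CD8+ T cells, where 10.5% and 11% of all genes passed, and DESeq2 called 0 in either subset, beside 2.27% and 1.75% of all genes. The estimates were negative for 7 of 8 genes in CD4+ and for 8 of 8 in CD8+ T cells, with medians of −0.18 and −0.17 against 0.01 and −0.01 over all genes tested. Libraries did not overlap for 3 of the 8 in CD4+ T cells (38.1% of all genes tested) and for 3 in CD8+ T cells (43.4%). In bulk RNA, fewer cells that express a gene and less RNA per cell cannot be told apart, here and in what follows.

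When the donor T cells lacked PD-1 as well as STAT3, the LAT1 light chain and the neutral exchanger ASCT1 were higher in both subsets. In CD4+ T cells, Slc7a5 reached 158 and 201 CPM, against 82.6 and 91.6 in WT. In CD8+ T cells it reached 226 and 294 CPM, against 152 and 107 in WT. Every STAT3-/-PD-1-/- library was above each library of the other genotypes of its subset. Against WT, Slc7a5 rose 2.06-fold in CD4+ (log2 fold change 1.04, SE 0.17, adjusted p = 0.0101) and 2.00-fold in CD8+ T cells (1.00, SE 0.28, adjusted p = 0.0476). The CD8+ call against WT was close to the threshold and was lost with RLE size factors (adjusted p = 0.0517) and with limma on log2(RPKM + 1) or log2(RPKM + 0.1) (0.0573 and 0.0528). Against STAT3-/-, it rose 2.86-fold (1.52, SE 0.17, adjusted p = 0.00693) and 2.42-fold (1.27, SE 0.28, adjusted p = 0.0253).

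In the comparisons with STAT3-/-PD-1-/- cells, Slc1a4 had the largest fold change of the 8 genes, at the lowest level. It stood at 0.625 and 1.31 CPM in WT CD4+, 1.07 and 0.890 in STAT3-/- CD4+, and 3.72 and 3.13 in STAT3-/-PD-1-/- CD4+ libraries. CD8+ libraries held it at 1.64 and 1.17, 1.37 and 1.19, and 4.26 and 4.80 CPM. The STAT3-/-PD-1-/- libraries again lay above all others of their subset. The rise against WT was 3.51-fold in CD4+ (log2 fold change 1.81, SE 0.40, adjusted p = 0.0276) and 3.23-fold in CD8+ T cells (1.69, SE 0.30, adjusted p = 0.0136). Against STAT3-/-, it was 3.49-fold (1.80, SE 0.40, adjusted p = 0.0335) and 3.52-fold (1.82, SE 0.30, adjusted p = 0.0126). The WT CD4+ libraries held 14 and 31 reads of this gene and the STAT3-/-PD-1-/- CD8+ libraries 96 and 116. Even after the rise it stayed far below Slc1a5, its relative, by 90.1-fold or more in RPKM.

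The arginine and lysine transporter Slc7a1 rose against STAT3-/- but did not pass the unblocked test against WT. It reached 177 and 207 CPM in STAT3-/-PD-1-/- CD4+ libraries, against 92.3 and 104 in STAT3-/- and 123 and 151 in WT. In CD8+ libraries it reached 199 and 237 CPM, against 147 and 127 and against 169 and 148. Here too the STAT3-/-PD-1-/- libraries did not overlap the others of their subset. Against STAT3-/-, the rise was 1.96-fold in CD4+ (log2 fold change 0.97, SE 0.17, adjusted p = 0.0180) and 1.59-fold in CD8+ T cells (0.67, SE 0.14, adjusted p = 0.0239). Against WT, the log2 fold changes were 0.49 (SE 0.17, adjusted p = 0.103) and 0.46 (SE 0.14, adjusted p = 0.0675). DESeq2 called the latter (adjusted p = 0.0312), and edgeR with the replicate number as a block called the former (adjusted p = 0.0149).

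The other 5 transporters were called in none of these comparisons. Slc7a6, the second CD98 light chain measured, kept to 60.5 to 85.0 CPM over the 12 libraries, with log2 fold changes of 0.01 (95% interval −0.34 to 0.36) in CD4+ and −0.05 (−0.35 to 0.25) in CD8+ T cells for STAT3-/-PD-1-/- against WT. Slc1a5, the ASCT2 gene, kept to 221 to 304 CPM, with log2 fold changes of 0.02 (−0.35 to 0.40) and 0.03 (−0.21 to 0.27). Slc38a1 kept to 274 to 389 CPM, with 0.06 (−0.29 to 0.42) and 0.15 (−0.09 to 0.39). These intervals leave out a 2-fold change in either direction for each of these 3 genes. For Slc3a2 and Slc38a2 the intervals are far wider because of the split between replicates. The CD98 heavy chain had log2 fold changes of −0.65 (−1.68 to 0.38) and −0.50 (−1.67 to 0.68), and Slc38a2 of −0.43 (−1.29 to 0.43) and −0.40 (−1.04 to 0.24), so that a fall by a factor of 2 lies inside them. With the replicate number as a block, the intervals were −1.05 to 0.01 and −1.05 to 0.47 for Slc3a2 and −0.75 to 0.05 and −0.68 to −0.03 for Slc38a2. Neither gene was called by edgeR (adjusted p from 0.0993 to 0.544). This block takes the shift between replicates as equal in all genotypes. The log2 shift was −0.85 in WT and −0.26 in STAT3-/-PD-1-/- cells for Slc38a2, and −1.29 and −0.11 for Slc3a2. The narrower intervals therefore do not exclude a fall by a factor of 2.

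In counts, 2 of the 8 genes rose against WT in CD4+ T cells and none fell, where 12.9% of all genes tested were called and 7.21% were called higher. Against STAT3-/- it was 3 of 8 in CD4+ T cells, where 11.1% were called and 6.05% called higher. In CD8+ T cells, 2 of 8 rose against WT, where 17.2% were called and 9.01% called higher, and 3 of 8 against STAT3-/-, where 16.8% were called and 8.76% called higher. The 2 comparisons of each subset share the STAT3-/-PD-1-/- libraries. Libraries did not overlap for 3 and 5 of the 8 genes in CD4+ T cells, where the share of all genes was 59.0% in both comparisons, and for 4 and 6 in CD8+ T cells, where it was 59.8% and 63.0%. The median log2 fold change of the 8 was 0.04 and 0.21 in CD4+ and 0.09 and 0.21 in CD8+ T cells, against medians of all genes between −0.01 and 0.00. For 1 gene alone, 2 libraries in each group allow no exact permutation p (2-sided) under 0.333, so that the tests rest on the spread shared across genes and no such p is given.

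The calls depended on single libraries, as did those of all genes. Without STAT3-/-PD-1-/- replicate 2, the genes called fell from 1538 to 62 against WT and from 1324 to 0 against STAT3-/- in CD4+ T cells, and from 2066 to 111 and from 2017 to 2 in CD8+ T cells. Without replicate 1 of that genotype they were 147, 66, 835, and 1034. The calls lost below are therefore not particular to the transporters. In CD4+ T cells against WT, neither Slc7a5 nor Slc1a4 was called without WT replicate 1 (adjusted p = 0.0524 and 0.111), without STAT3-/-PD-1-/- replicate 1 (0.0505 and 0.140), or without STAT3-/-PD-1-/- replicate 2 (0.0912 and 0.135). In CD8+ T cells against WT, the same held without WT replicate 2 (0.186 and 0.0765) and without either STAT3-/-PD-1-/- library (0.108 and 0.0548, and 0.245 and 0.0862). Against STAT3-/-, none of the 3 genes was called without STAT3-/-PD-1-/- replicate 2 in either subset or without STAT3-/- CD8+ replicate 2, with adjusted p between 0.0722 and 0.183. Only Slc7a5 (CD4+, adjusted p = 0.0376) or Slc1a4 (CD8+, 0.0454) was called without STAT3-/-PD-1-/- replicate 1. Slc1a4 alone lost its call in CD4+ T cells without STAT3-/- replicate 1 (0.0531) or 2 (0.104). An arm left with 1 library is assumed to vary like the others. The direction of all 3 genes was the same without each library, with log2 fold changes against WT of 0.86 to 1.20 and 0.75 to 1.27 for Slc7a5 and of 1.38 to 2.43 and 1.44 to 1.95 for Slc1a4.

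**Figure D2:**
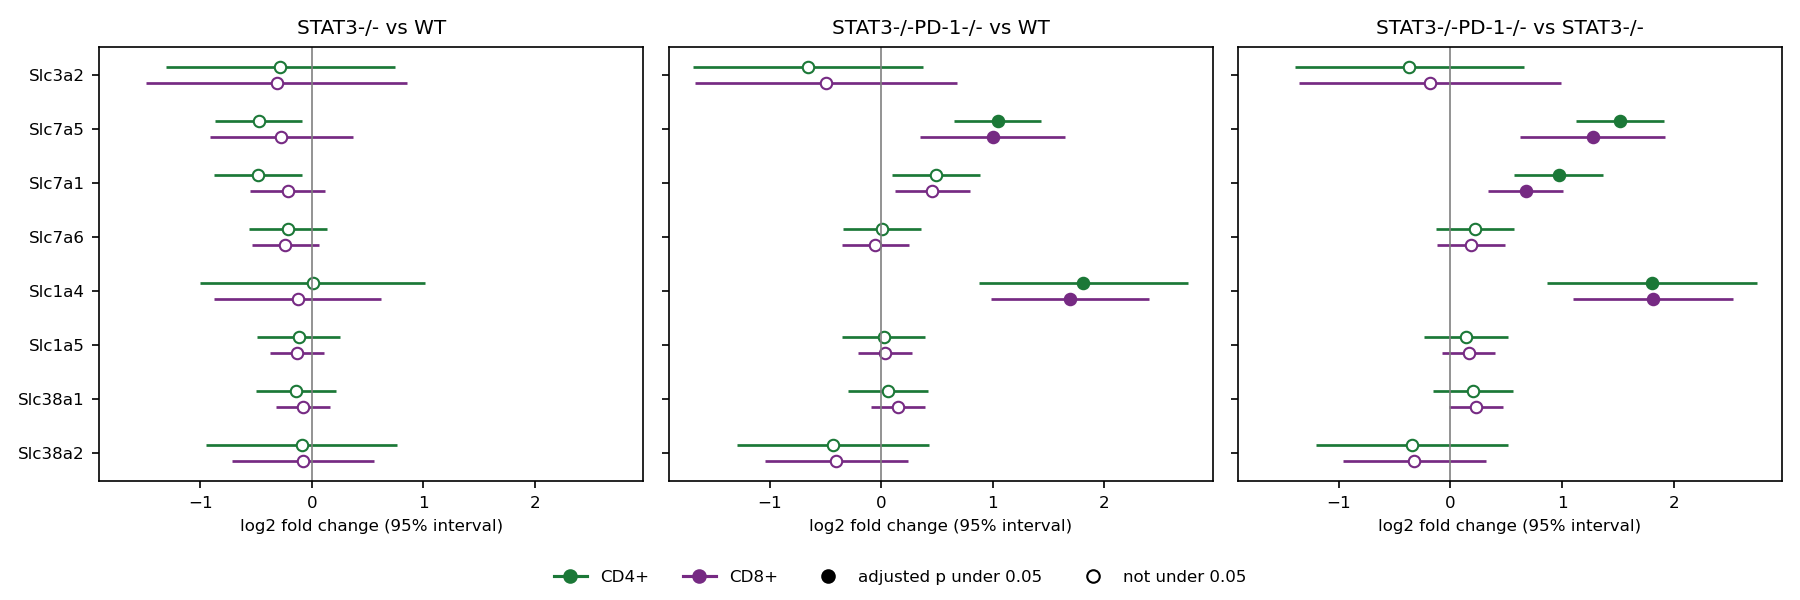
Log2 fold change of each transporter for the 3 comparisons of genotypes, with 95% intervals from edgeR's quasi-likelihood fit of the 6 libraries of each subset (green CD4+, purple CD8+). Filled points have an adjusted p under 0.05, and in the comparisons with STAT3-/-PD-1-/- cells these are Slc7a5, Slc1a4, and, against STAT3-/-, Slc7a1.

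Because LAT1 works as a pair of Slc7a5 with Slc3a2, the transcripts of the 2 chains were set against each other per length. In CD4+ T cells, the RPKM of Slc7a5 was 0.210 and 0.510 times that of Slc3a2 in WT libraries and 0.200 and 0.419 times in STAT3-/- libraries. In STAT3-/-PD-1-/- CD4+ libraries it was 0.815 and 1.18 times. In CD8+ T cells, the ratio was 0.393 and 0.738 in WT, 0.446 and 0.638 in STAT3-/-, and 1.20 and 1.55 in STAT3-/-PD-1-/- libraries. The STAT3-/-PD-1-/- libraries did not overlap the others in either subset. Within every genotype and subset the ratio was higher in replicate 2, and in WT and STAT3-/- cells Slc3a2 was low there. Of the summed RPKM of Slc7a5 and Slc7a6, the 2 light chains among the 8 genes, Slc7a5 took 56.6% to 63.4% in WT and STAT3-/- CD4+ libraries. It took 75.2% and 77.2% in STAT3-/-PD-1-/- CD4+ libraries. In CD8+ libraries it took 62.4% to 71.3%, and 80.1% and 82.9%. The RPKM of the 8 genes summed to 353 ± 2.07 (SD, n = 2) in STAT3-/-PD-1-/- and 363 ± 63.8 (SD, n = 2) in WT CD4+ libraries, and to 399 ± 14.8 and 383 ± 97.5 in CD8+ libraries. No test was made of these ratios, which are of transcripts and not of protein at the surface.

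**Figure D3:**
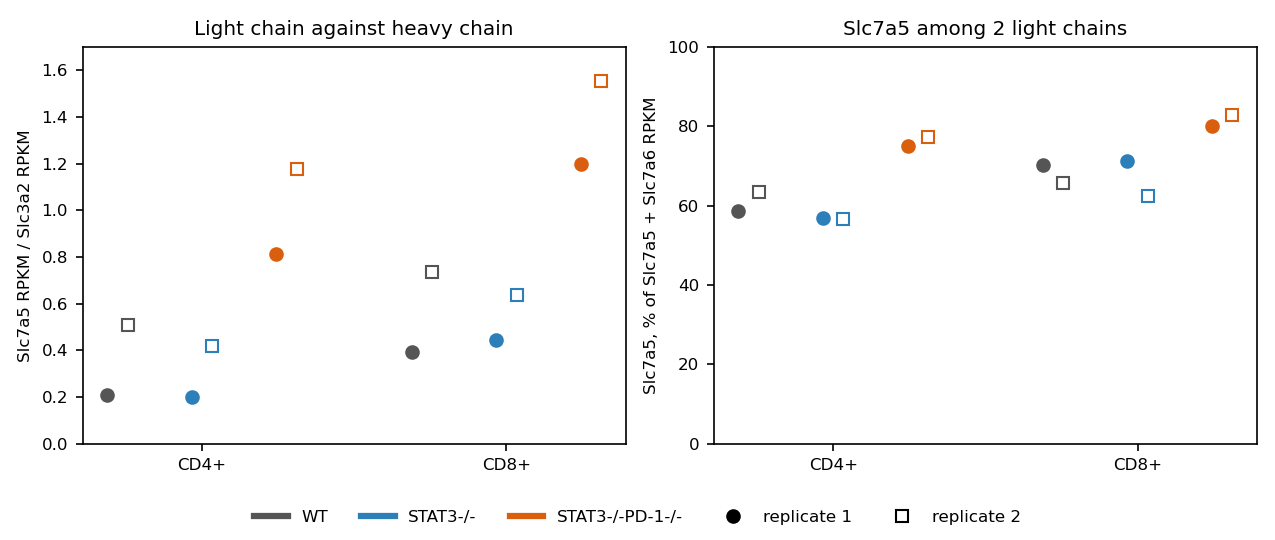
Ratio of Slc7a5 to Slc3a2 RPKM (left) and share of Slc7a5 in the summed RPKM of Slc7a5 and Slc7a6 (right, percent) in each library, with linear axes from 0. The STAT3-/-PD-1-/- libraries lie above the others of their subset in both panels.

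No difference in these rises between CD4+ and CD8+ T cells passed a test of the difference itself. Fitted over the 12 libraries as an interaction, the log2 fold change of STAT3-/-PD-1-/- against WT in CD8+ minus that in CD4+ T cells was −0.03 for Slc7a5 (95% interval −0.82 to 0.76), −0.02 for Slc7a1 (−0.50 to 0.46), and −0.11 for Slc1a4 (−1.17 to 0.94). None of the 8 genes was called in the 3 interactions (0 at an unadjusted p under 0.05 as well, and 0 by DESeq2), but these intervals are wide, and few genes were called at all. The share of all genes called was 0.00% for STAT3-/- against WT, 0.00811% for STAT3-/-PD-1-/- against WT, and 0.00% for STAT3-/-PD-1-/- against STAT3-/-. In the same order, 1.85%, 4.43%, and 3.59% of all genes had an unadjusted p under 0.05, and DESeq2 called 0.0405%, 0.616%, and 0.154%.

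Between the subsets, Slc7a5 was higher in CD8+ than in CD4+ libraries of every genotype, without overlap. The log2 differences were 0.56 in WT (adjusted p = 0.231), 0.77 in STAT3-/- (0.0973), and 0.53 in STAT3-/-PD-1-/- (0.378), so that none passed the test of the fit across genes. None of the 8 was called in any genotype, where 10.5% (WT), 9.62% (STAT3-/-), and 4.14% (STAT3-/-PD-1-/-) of genes were called. At an unadjusted p under 0.05 the counts were 0, 2, and 0 (of all genes, 22.1%, 22%, and 14.7%), and DESeq2 called 0, 1 (Slc7a5), and 0 (12.3%, 11.7%, and 6.15%). The study's supplement states that the CD8+ T cells came from the livers of the recipients that gave the CD4+ T cells, and libraries of the same genotype and number deviated together, so the pool was also taken as a block, a choice made after seeing the data. With this block, 24.3%, 24.9%, and 14.4% of genes were called in the 3 genotypes, and 12.1% were higher in CD8+ T cells of the STAT3-/- genotype. In STAT3-/- cells, Slc7a5 (1.65-fold, adjusted p = 0.0180) and Slc7a1 (1.38-fold, adjusted p = 0.0319) were then called higher in CD8+ T cells. In WT and STAT3-/-PD-1-/- cells, Slc7a5 was 1.45-fold and 1.44-fold higher with adjusted p = 0.0542 and 0.0769, and no transporter was called. Whether the genotypes differ in this is the interaction given above, which called none of the 8 with the block either, where 0.00%, 0.681%, and 0.178% of all genes were called.

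The split between replicates is given first for the heavy chain and SNAT2. Slc3a2 stood at 331 CPM in replicate 1 and 151 in replicate 2 of WT CD4+, and at 275 and 121 in STAT3-/- CD4+ libraries. Its CD8+ values were 326 and 122 in WT and at 254 and 107 in STAT3-/-. In STAT3-/-PD-1-/- cells the libraries were close, at 163 and 143 in CD4+ and 159 and 159 in CD8+ T cells. Thus the STAT3-/-PD-1-/- libraries lay between the high replicate 1 and the low replicate 2 of the other genotypes, except that the CD4+ value of 143 was just under the WT replicate 2 value of 151. Slc38a2 was split in the same direction, at 490 and 249, 451 and 243, and 300 and 247 CPM in CD4+ libraries of WT, STAT3-/-, and STAT3-/-PD-1-/-. Among CD8+ libraries, the values were 466 and 288, 435 and 279, and 306 and 264 CPM. Its STAT3-/-PD-1-/- values were below every replicate 1 value of the other genotypes, and in CD8+ T cells replicate 2 lay below their replicate 2 values as well.

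A replicate term for each genotype, fitted over both subsets after the split had been seen, gave its size. In WT cells, the log2 difference of replicate 2 from replicate 1 was −1.29 for Slc3a2 and −0.85 for Slc38a2. In STAT3-/- cells these were −1.24 and −0.79, and in STAT3-/-PD-1-/- cells they were −0.11 and −0.26. The differences of STAT3-/-PD-1-/- cells from the mean of the other genotypes were therefore 1.16 for Slc3a2 and 0.56 for Slc38a2. Within a genotype, replicate 1 and replicate 2 are 1 pool each, and the CD4+ and CD8+ libraries repeat the same pool. These values thus have no replication between pools, and no test is given for them. The 2 genes had also been picked for this split. Counting libraries and not pools, the fit called 12.4% of 12334 genes for this difference and 5.29% higher. Such a difference was therefore not particular to these transporters. In WT and STAT3-/- cells, Slc7a1 and Slc38a1 were higher in replicate 2 of CD4+ and lower in replicate 2 of CD8+ libraries, while Slc7a6 had log2 differences of −0.21 to −0.11 in both subsets. Slc7a5 had log2 differences of −0.51 (WT) and −0.74 (STAT3-/-) in CD8+ but of 0.15 and −0.12 in CD4+ libraries.

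**Figure D4:**
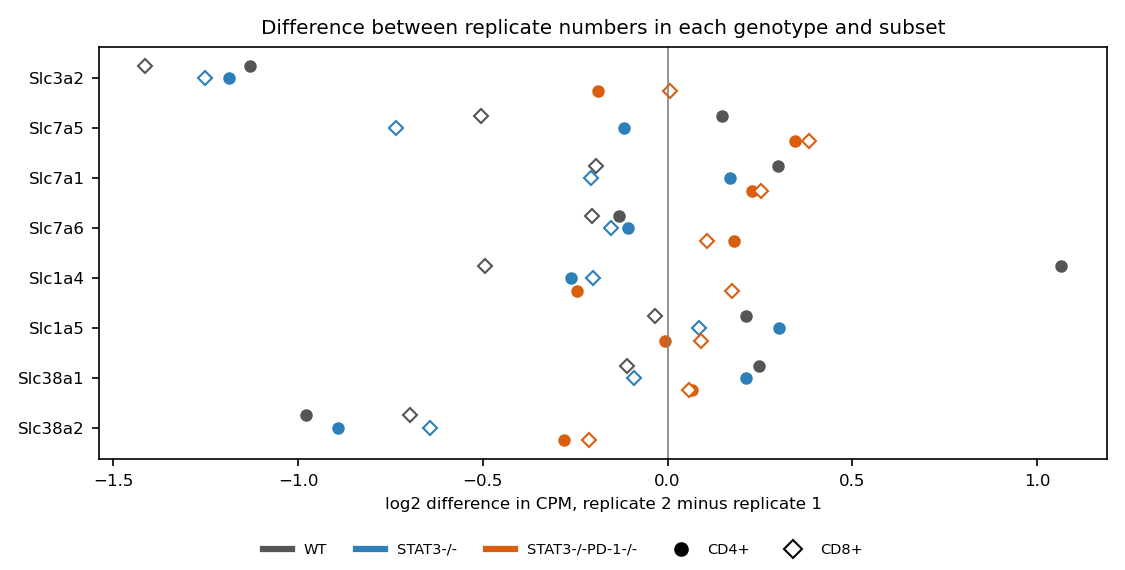
Log2 difference in CPM of replicate 2 from replicate 1 for each transporter in WT, STAT3-/-, and STAT3-/-PD-1-/- libraries, with filled circles for CD4+ and open diamonds for CD8+ T cells. Each symbol sets 1 library against 1 library, and Slc3a2 lies between −1.41 and −1.13 in WT and STAT3-/- cells but at −0.19 and 0.01 in STAT3-/-PD-1-/- cells.

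Other measures moved with the replicate number. Markers of several other cell types were higher in replicate 2, at low counts. Those of Kupffer cells and macrophages were higher as a sum in each group, by the most in WT and STAT3-/- cells, but not each gene was. Clec4f, a Kupffer cell gene, had 2 counts in replicate 1 and 39 in replicate 2 of WT CD4+, and 4 and 25 in STAT3-/- CD4+ libraries, but 1 and 6 in STAT3-/-PD-1-/- CD4+ libraries. In CD8+ libraries it had 5 and 37 counts in WT and 1 and 25 in STAT3-/- cells, but 5 and 2 in STAT3-/-PD-1-/- cells. The 10 macrophage markers summed to 9.29 and 19.3 CPM in WT, 7.28 and 14.3 in STAT3-/-, and 9.46 and 11.9 in STAT3-/-PD-1-/- CD4+ libraries. In CD8+ libraries the sums were 30.0 and 39.4, 27.7 and 35.1, and 17.8 and 19.5 CPM. Cd68 was the most abundant of them in every library, and 0 to 2 of the 10 were at 0 counts. In STAT3-/-PD-1-/- libraries Cd68 had 198 and 260 counts in CD4+ and 383 and 449 in CD8+ T cells. C1qa there had 6 and 1 counts in CD4+ and 3 and 4 in CD8+ T cells. The 10 hepatocyte markers summed to 1.92 and 3.71 CPM in WT, 1.44 and 2.80 in STAT3-/-, and 2.12 and 4.10 in STAT3-/-PD-1-/- CD4+ libraries. In CD8+ libraries they summed to 1.82 and 4.02, 1.5 and 2.10, and 3.46 and 5.30 CPM, so that replicate 2 was higher in all 6 groups, with Trf as the most abundant and 2 to 5 of the 10 at 0 counts. The 5 neutrophil markers were also higher as a sum in replicate 2 of all 6 groups, at 0 to 0.581 CPM in replicate 1 and 0.331 to 1.14 CPM in replicate 2. Not each gene was, and Ly6g had 8 and 4 counts in replicate 1 and replicate 2 of WT CD4+ libraries. Stab2 and Lyve1, genes of the sinusoidal endothelium, had 0 counts in replicate 1 of WT and STAT3-/- CD8+ libraries, and 15 and 27 (Stab2) and 16 and 10 (Lyve1) in replicate 2. In STAT3-/-PD-1-/- CD8+ libraries, Stab2 had 2 and 5 counts and Lyve1 had 1 and 6. Atf4, the stress response factor, was looked up after this split had been seen. It stood at 403 and 203 CPM in WT CD4+, 365 and 188 in STAT3-/- CD4+, and 269 and 207 in STAT3-/-PD-1-/- CD4+ libraries, and at 416 and 212, 373 and 208, and 261 and 207 CPM in CD8+ libraries. Over both subsets, its log2 difference was −0.92 in STAT3-/- and −0.37 in STAT3-/-PD-1-/- cells. Ddit3, which encodes CHOP and acts downstream of ATF4, had differences of −1.54, −1.46, and −0.67, with WT first and STAT3-/-PD-1-/- last, again without replication between pools. Not all of the 20 regulators in this fit followed that order. Cebpg had differences of −0.34, 0.04, and −1.91, and Myc had −0.35, −0.88, and −0.80. The part of these measures in the split of Slc3a2 and Slc38a2 was not tested.

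Over the 12 libraries, each centred on the mean of its subset, the transporters fell into patterns that can be described but not tested, since the points share genotypes and replicates. The log2 CPM of Slc7a5 had a Pearson r of 0.96 with Slc7a1 and 0.91 with Slc1a4. Slc3a2 had an r of 0.94 with Slc38a2 and of 0.01 with Slc7a5, its partner in LAT1. Among 8605 other genes averaging a log2 CPM of 3 or more, those most like Slc7a5 were Eif3b (0.99), a subunit of a translation initiation factor, Noc2l (0.99), and Dis3 (0.99), a ribonuclease of the RNA exosome. Those most like Slc7a1 were Rbm19 (0.98), Ddx27 (0.98), and Tubgcp2 (0.98), and those most like Slc38a1 were Polr1a (0.96), the largest subunit of RNA polymerase I, and Ddx56 (0.95). Slc1a4 was most like Slc12a2 (0.97), Nrgn (0.97), and Pfas (0.97), an enzyme of purine synthesis that uses glutamine. Slc3a2 was most like Bhlhe40 (0.99), Skil (0.98), and Tgif2 (0.98), and Slc38a2 most like Ccnl1 (0.99), Ing3 (0.99), and Cdk5r1 (0.99). Slc1a5 was most like Srebf1 (0.94), a regulator of lipid synthesis, and Spout1 (0.91) was also among its 3 most similar genes. Slc7a6 was most like Ddx49 (0.95), Slc25a16 (0.94), and Smim3 (0.94).

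Beyond the 8 genes, 39 other plasma membrane amino acid transporters were in the table, but only 8 passed the filter on low counts in CD4+ and 9 in CD8+ T cells. Slc7a11, the cystine transporter that feeds glutathione synthesis, was at the limit of detection, with 0 counts in 9 libraries and at most 2 counts in the other 3. Slc7a3 (CAT-3), another cationic transporter, rose in STAT3-/-PD-1-/- CD8+ T cells, with 72 and 122 counts against 22 and 15 in WT and 17 and 19 in STAT3-/- libraries (adjusted p = 0.0110 and 0.0115). In CD4+ libraries it had 48 and 70 counts in STAT3-/-PD-1-/-, 1 and 7 in WT, and 7 and 3 in STAT3-/- cells. There it passed the filter only through the STAT3-/-PD-1-/- libraries, so a difference was built in and no p is given. Slc43a2 (LAT4), which lets large neutral amino acids pass in either direction, fell. It stood at 46.4 ± 2.34 CPM (SD, n = 2) in WT and 20.9 ± 3.46 in STAT3-/-PD-1-/- CD4+ libraries (2.22-fold lower, adjusted p = 0.0204), and at 36.5 ± 4.86 and 18.4 ± 0.133 CPM in CD8+ libraries (1.99-fold lower, adjusted p = 0.00782). It was also lower than in STAT3-/- cells (adjusted p = 0.0162 in CD4+ and 0.00454 in CD8+). Slc7a8 (LAT2), also a CD98 light chain, fell against WT in CD4+ T cells, from 2.73 ± 1.27 to 0.625 ± 0.0323 CPM (adjusted p = 0.0266). Slc6a9, a glycine transporter, had 10 and 22 counts in STAT3-/-PD-1-/- CD8+ libraries and 0 and 1 in STAT3-/- CD8+ libraries, and it too passed the filter only through the former. Of 6 lysosomal amino acid transporters tested, Slc38a9, which signals arginine to mTORC1, was lower than in STAT3-/- CD4+ T cells (28.4 ± 0.761 against 56.6 ± 16.8 CPM, adjusted p = 0.0378), and no other was called in any comparison.

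Of the genes through which mTORC1 senses amino acids, 36 were tested in CD4+ and 37 in CD8+ T cells, and most did not pass the test. Against WT, 1 was higher and 2 lower in CD4+, and 2 higher and 3 lower in CD8+ T cells. These are 8.33% and 13.5% of the list, below the 12.9% and 17.2% called over all genes, so the list did not stand out and its called genes are given as single genes. Sesn3, a member of the sestrin family that restrains mTORC1, fell from 67.3 ± 4.22 to 24.4 ± 3.63 CPM in CD4+ T cells (SD, n = 2, adjusted p = 0.00446). Castor1, an arginine sensor that also restrains mTORC1, fell from 20.6 ± 3.41 to 10.0 ± 0.837 CPM in CD4+ (adjusted p = 0.0214) and from 10.4 ± 0.561 to 5.91 ± 0.954 CPM in CD8+ T cells (adjusted p = 0.0350). Tbc1d7, a subunit of the TSC complex, rose 1.84-fold in CD4+ (adjusted p = 0.0267) and 1.74-fold in CD8+ T cells (adjusted p = 0.0166). Deptor, an inhibitor bound to mTOR, rose in CD8+ T cells from 0.596 ± 0.161 to 4.58 ± 0.897 CPM (adjusted p = 0.00511). Against STAT3-/-, Sesn3 was lower and Tbc1d7 higher in both subsets and Deptor higher in CD8+ T cells. The genes that fell and those that rose both include inhibitors of mTORC1.

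Several enzymes that use imported amino acids were higher in STAT3-/-PD-1-/- cells. Of 26 tested, 6 rose and 1 fell against WT in CD4+, and 9 rose and 0 fell in CD8+ T cells, and against STAT3-/- the counts were 6 and 1, and 7 and 0. Of all genes, 7.21% and 9.01% were called higher against WT and 6.05% and 8.76% against STAT3-/-. Gls2 (both subsets) and Gpt2 (CD4+) passed the filter only through the STAT3-/-PD-1-/- libraries. Without them, 5 of 24 rose in CD4+ and 8 of 25 in CD8+ T cells against WT (20.8% and 32.0%), and 5 of 24 and 6 of 25 against STAT3-/- (20.8% and 24%). The medians over all 26 tested genes were 0.29 and 0.38 against WT, beside −0.01 and 0.00 over all genes. They include Gls2 and Gpt2, so part of the rise is built in, and no median was taken without them. Asns, which makes asparagine from glutamine and is a classical ATF4 target, stood at 7.73 and 8.53 CPM in WT CD4+, 6.12 and 5.12 in STAT3-/- CD4+, and 28.8 and 40.1 in STAT3-/-PD-1-/- CD4+ libraries. The values in CD8+ libraries were 17.0 and 16.3, 16.1 and 8.61, and 47.4 and 63.7 CPM. The rise against WT was 4.24-fold (adjusted p = 0.00414) and 3.33-fold (adjusted p = 0.0111). Bcat1, the cytosolic aminotransferase of leucine, isoleucine, and valine, was at 6.79 and 8.40 CPM in WT CD4+ and 26.1 and 32.6 in STAT3-/-PD-1-/- CD4+ libraries (3.87-fold, adjusted p = 0.00446). In CD8+ libraries it was at 17.0 and 14.9 against 38.9 and 49.2 CPM, and against STAT3-/- CD8+ it rose 3.55-fold (adjusted p = 0.00320). Gls2, a glutaminase, had 6 and 1 counts in WT CD8+ and 27 and 56 in STAT3-/-PD-1-/- CD8+ libraries, and no p is given for the reason above. Gpt2, an alanine aminotransferase, had 7 and 3 counts in WT, 12 and 11 in STAT3-/-, and 30 and 41 in STAT3-/-PD-1-/- CD8+ libraries (adjusted p = 0.0147 against WT).

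**Figure D5:**
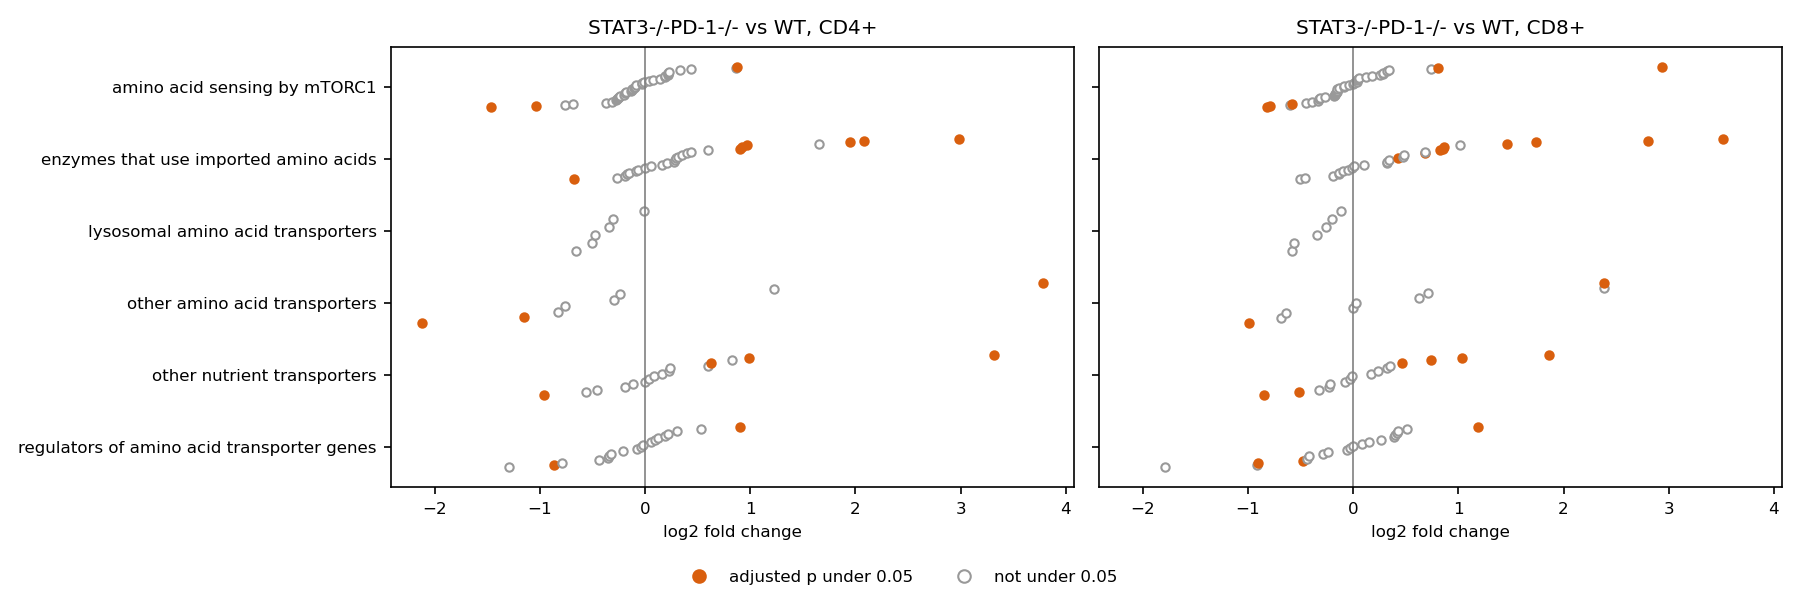
Log2 fold change of STAT3-/-PD-1-/- against WT for each tested gene of 6 lists around amino acid transport, in CD4+ (left) and CD8+ T cells (right), with genes sorted by value within a list and filled in orange at an adjusted p under 0.05. The enzymes that use imported amino acids hold 6 and 9 genes called higher, and the lysosomal transporters none. Without genes that passed the filter only through the STAT3-/-PD-1-/- libraries, 5 of 24 and 8 of 25 enzymes were called higher, beside 7.21% and 9.01% of all genes.

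Among 19 regulators of transporter genes tested in CD4+ and 20 in CD8+ T cells, 2 (10.5%) and 3 (15%) were called against WT, below the 12.9% and 17.2% of all genes. Epas1, the hypoxia factor HIF-2α, rose from 222 ± 28.4 to 415 ± 40.2 CPM in CD4+ (adjusted p = 0.0131) and from 133 ± 7.33 to 301 ± 40.2 CPM in CD8+ T cells (adjusted p = 0.0101) against WT. Nfe2l2, which encodes the antioxidant factor NRF2, fell from 36.1 ± 7.15 to 19.8 ± 1.81 CPM (adjusted p = 0.0361) and from 35.4 ± 6.18 to 18.9 ± 1.92 CPM (adjusted p = 0.0179). Nfatc1 fell 1.39-fold in CD8+ T cells (adjusted p = 0.0476), and Eif2ak4, which encodes the amino acid sensor GCN2, was 1.80-fold higher than in STAT3-/- CD8+ T cells (adjusted p = 0.0254). Atf4 was called in none of the 6 comparisons, with log2 fold changes against WT of −0.35 (SE 0.39) and −0.42 (SE 0.36). Of 16 transporters for other nutrients, 3 rose and 1 fell against WT in CD4+, and 4 rose and 2 fell in CD8+ T cells (25% and 37.5% called). Cd36, the fatty acid carrier, rose from 1.03 ± 0.317 to 10.3 ± 2.18 CPM in CD4+ (adjusted p = 0.00408) and from 3.06 ± 0.630 to 11.1 ± 5.30 CPM in CD8+ T cells (adjusted p = 0.0222). Slc19a1, the reduced folate carrier, rose 1.99-fold (adjusted p = 0.0450) and 2.05-fold (adjusted p = 0.0144). Slc2a3, which encodes the glucose transporter GLUT3, fell from 275 ± 23.7 to 141 ± 1.75 CPM (adjusted p = 0.00834) and from 291 ± 14.5 to 161 ± 4.50 CPM (adjusted p = 0.00541). Against STAT3-/-, Slc29a1, a nucleoside transporter, rose 1.77-fold in CD4+ T cells (adjusted p = 0.0215), and Slc11a2, an iron transporter, fell 1.42-fold in CD8+ T cells (adjusted p = 0.0323). In STAT3-/- against WT, 0 genes of any of these 6 lists were called in either subset, where 0.334% (CD4+) and 0.0583% (CD8+) of all genes were called.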

How the data were processed

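Bulk RNA-Seq of 12 libraries was used. According to the study's methods, the authors aligned 51 bp single-end reads to mm10 (STAR, version 2.7) and counted reads per RefSeq gene (HTSeq-count, version 0.11). The labels name another kit and protocol, which were not used, so the strandedness of the library is not certain. The deposited counts are unnormalized, and the deposited RPKM values divide them by exon length and a library size.

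The software was edgeR 4.0.16, DESeq2 1.42.0, and limma 3.58.1 under R 4.3.3. Low genes were removed with filterByExpr (at least 10 counts, 15 in total). After TMM scaling, the quasi-likelihood test of edgeR was applied, and p-values were adjusted by Benjamini-Hochberg over all genes tested. Each subset was fitted with its 6 libraries (3 residual degrees of freedom), and interactions, subsets, and replicates were fitted with 12. Figures were drawn with matplotlib. The fits were also run on simulated counts. These had no shift between replicates and no pools shared by the subsets, so the runs do not cover these features of the data. CPM between subsets were scaled within each subset.

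From each list, up to 3 called genes of largest absolute log2 fold change per comparison of genotypes were named, and for each transporter the 3 most similar genes, of which 2 are not reported here. Cad, Psat1, and other called genes were not named by this rule, while Atf4, Ddit3, Cebpg, Myc, Clec4f, Cd68, and Slc7a11 were named after their values had been seen. The transporters, lists, and rules were chosen with earlier results of these data known. Same-numbered CD4+ and CD8+ libraries of a genotype deviated together (r across genes from 0.64 to 0.87), and the study's supplement states that both subsets came from the livers of the same recipients, which is the source of the pool block. Between genotypes of a subset, p-values measure the spread between pools. Fits of 12 libraries count the subsets of a pool separately, the pool block uses the spread of the subsets within pools, and a replicate term within a genotype has no replication between pools. Alternatives were DESeq2, RLE factors, no filter, a replicate block, the 4 libraries compared, limma on log2(RPKM + 1) or log2(RPKM + 0.1), and leaving out each library. Counts of list genes without those that passed the filter through 1 genotype alone were added after seeing the data.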

Additional observations from a re-analysis of the deposited data

Results flagged for a closer look

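The difference between replicate 2 and replicate 1 varied with genotype for 2 transporters. For Slc3a2, the log2 difference was higher by 1.16 in STAT3-/-PD-1-/- cells than in the mean of WT and STAT3-/- cells. For Slc38a2, it was higher by 0.56. Both were flagged by a fit that counts libraries and not pools. It called 12.4% of 12334 genes for this difference and 5.29% higher. Each replicate of a genotype is 1 pool, with its CD4+ and CD8+ libraries as repeats, so the difference was not tested between pools, and since the 2 genes had been picked for this split, the values are a description. The summed macrophage, hepatocyte, and neutrophil markers and Atf4 moved with the replicate number too, and their part in it was not tested.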

How the results depend on the processing

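In STAT3-/-PD-1-/- against WT CD8+ T cells, the number of transporters called was 1 (Slc1a4, with Slc7a5 lost) in place of 2 with RLE size factors and with limma on log2(RPKM + 1) or log2(RPKM + 0.1). Between subsets of STAT3-/- cells, it was 1 in place of 0 with DESeq2, no filter, or the replicate block, and 2 with the pool as block. The replicate block gave 3, 3, 2, and 3 transporters in the comparisons with STAT3-/-PD-1-/- cells, where Slc7a1 joined in CD4+ T cells against WT (adjusted p = 0.0149). Over all genes, the block called 3104 and 3105 of 11959 in CD4+ and 2965 and 2932 of 12002 in CD8+ T cells, against WT and STAT3-/- in turn. Without it these were 1538, 1324, 2066, and 2017, so more calls were gained over all genes as well. The deviations of same-numbered libraries correlated between genotypes of a subset at r from 0.04 to 0.84, most closely for WT with STAT3-/- (0.83 in CD4+ and 0.84 in CD8+), and the labels do not say what the number marks. The block changed no other call of a transporter between genotypes.

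Leaving out 1 library gave 0 to 2 transporters in CD4+ and 0 to 2 in CD8+ T cells against WT, 0 to 3 in both subsets against STAT3-/-, 0 to 1 between subsets of STAT3-/- cells (1 without STAT3-/- CD8+ replicate 2), and 1 to 2 between replicates, where summing both subsets of a pool gave 0 in place of 2. Over all genes, the 4 comparisons with STAT3-/-PD-1-/- cells ranged from 62 to 1947 and 111 to 1908 calls against WT and from 0 to 1212 and 2 to 1878 against STAT3-/-.

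The log2 fold change of Slc7a6 in STAT3-/-PD-1-/- against WT CD4+ T cells was −0.0076 with DESeq2, −0.0077 with RLE, −0.0008 with no filter, and −0.0044 with 4 libraries. Slc1a4 in STAT3-/- against WT CD4+ T cells was −0.0085 with 4 libraries, and Slc3a2 in STAT3-/-PD-1-/- against STAT3-/- CD8+ T cells was 0.0043 with the replicate block. Without 1 library, signs changed for uncalled values. In STAT3-/- against WT these ranged from −0.9963 to 0.39 (Slc3a2), −0.42 to 0.63 (Slc1a4), −0.27 to 0.0268 (Slc1a5), and −0.61 to 0.48 (Slc38a2) in CD4+ and from −1.08 to 0.56 (Slc3a2), −0.69 to 0.0515 (Slc7a5), −0.36 to 0.14 (Slc1a4), and −0.44 to 0.31 (Slc38a2) in CD8+ T cells. In STAT3-/-PD-1-/- against WT they ranged from −1.12 to 0.0188 (Slc3a2), −0.0883 to 0.0947 (Slc7a6), −0.0802 to 0.12 (Slc1a5), −0.057 to 0.18 (Slc38a1), and −0.85 to 0.14 (Slc38a2) in CD4+ and from −1.06 to 0.37 (Slc3a2), −0.17 to 0.0508 (Slc7a6), and −0.0164 to 0.0586 (Slc1a5) in CD8+ T cells. Against STAT3-/- they ranged from −0.85 to 0.34 (Slc3a2), −0.0053 to 0.29 (Slc1a5), and −0.72 to 0.17 (Slc38a2) in CD4+ and from −0.68 to 0.57 (Slc3a2) and −0.62 to 0.0329 (Slc38a2) in CD8+ T cells.

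Over all genes, 40 were called in STAT3-/- against WT CD4+ T cells, but 271 by DESeq2, 165 with no filter, 303 with the block, and 1 with 4 libraries. In CD8+ T cells 7 were called, but 210 by DESeq2, 66 with no filter, and 0 with 4 libraries. The block raised the calls in CD4+ T cells from 1538 to 3104 against WT and from 1324 to 3105 against STAT3-/- (2098 by DESeq2). The cause was not tested. With 2 pools a group, the depth of Slc1a4 and the spread of Slc3a2 and Slc38a2 limit what could be detected.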
